A study of Homo sapiens with 6 samples.

Results

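The 106 genes described here are long noncoding and antisense RNA genes with a mean array signal above 50 in HepG2 cells. HepG2 is a human liver tumour line with many hepatocyte traits. They were chosen by symbol: LINC (long intergenic noncoding RNA), SNHG (small nucleolar RNA host gene), the endings -AS1 and -AS2 (antisense), -DT (divergent transcript) and -IT1 (intronic transcript), MIR host genes, and H19, MALAT1, NEAT1, GAS5 and HULC. Of 19775 genes with a probe set of their own, 1857 had such a symbol, and the 106 had a mean signal above 50 over all arrays. The mean signal that chose them is a description and supports nothing below.

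Cells had been transfected either with siRNA targeting HNF4A, the nuclear receptor of hepatocyte gene programmes (siHNF4A), or with a control siRNA (siControl). They then received 3 ng/ml TGF-beta, which signals via Smad proteins, for 0, 1.5 or 24 h. The groups were siHNF4A cells at 0, 1.5 and 24 h and siControl cells at 0, 1.5 and 24 h, with 1 Affymetrix array each and no replicate. All were the same line, the 0 h cells had no TGF-beta, and cells kept for 24 h without it are not analysed here, so TGF-beta and time in culture cannot be told apart. With 1 siRNA label per arm, effects of the siRNA on transcripts other than its target were not separated.

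Long noncoding RNAs are transcribed mostly by RNA polymerase II, and many are spliced, capped and polyadenylated like messenger RNAs without encoding a protein. Antisense RNAs run against a named gene and divergent transcripts start beside one and run away from it, often out of a shared GC-rich promoter. SNHG genes carry in their introns the small nucleolar RNAs that guide chemical changes of ribosomal RNA. The label was made from an oligo-dT primer, so transcripts without a poly(A) tail are poorly covered, and the strand that each probe set reads was not checked here.

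By class the 106 genes comprised 50 antisense genes of 760 with such a symbol, 30 LINC genes of 841, 21 divergent transcripts of 197, 4 SNHG genes of 11, and MALAT1. None of the 25 intronic transcripts and none of the 21 MIR host genes had a mean signal above 50. H19 was on 2 probe sets and NEAT1 on 9 that also list other genes, so neither was named, and HULC had none in the table of probe sets. GAS5 had 1 probe set of its own, with a mean signal of 16.6, and 4 that list other genes as well. RefSeq held 104 of the 106 under the same symbol. LINC01296 and LINC00973 were not matched.

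The start sites that the results turn on are shown first, as RefSeq promoter windows of build GRCh38.p14, each reaching from 250 bases before to 50 bases after the start and written 5′ to 3′ on the gene's own strand. OIP5-AS1 (chr15:41283740-41284039, plus strand) and NNT-AS1 (chr5:43603181-43603480, minus strand) had the highest and lowest siRNA differences that passed the test. RefSeq begins the OIP5-AS1 gene at base 41282697, before its window, so that window belongs to a start further along the gene. LINC00667 (chr18:5237850-5238149, plus strand) is given because the start of LINC00526 lies within its window. ARHGAP5-AS1 (chr14:32076650-32076949, minus strand) and KDM7A-DT (chr7:140177011-140177310, plus strand) rose at 24 h together with the gene beside them. Capitals mark matches to the CCAAT box (CCAAT or ATTGG), the GC box (GGGCGG or CCGCCC) and the ETS motif (CCGGAAGT or ACTTCCGG).
OIP5-AS1: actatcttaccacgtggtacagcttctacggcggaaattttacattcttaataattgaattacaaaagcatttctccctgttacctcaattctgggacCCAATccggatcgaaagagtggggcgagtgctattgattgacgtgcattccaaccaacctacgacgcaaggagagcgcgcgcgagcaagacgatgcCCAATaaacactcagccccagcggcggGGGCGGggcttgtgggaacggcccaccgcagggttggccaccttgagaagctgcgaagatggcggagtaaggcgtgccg
NNT-AS1: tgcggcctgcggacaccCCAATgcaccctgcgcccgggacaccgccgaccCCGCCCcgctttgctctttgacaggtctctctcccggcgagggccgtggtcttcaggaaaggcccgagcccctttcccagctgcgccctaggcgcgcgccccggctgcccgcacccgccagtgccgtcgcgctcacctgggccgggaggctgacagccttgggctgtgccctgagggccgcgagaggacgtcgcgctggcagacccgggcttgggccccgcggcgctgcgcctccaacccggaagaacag
LINC00667: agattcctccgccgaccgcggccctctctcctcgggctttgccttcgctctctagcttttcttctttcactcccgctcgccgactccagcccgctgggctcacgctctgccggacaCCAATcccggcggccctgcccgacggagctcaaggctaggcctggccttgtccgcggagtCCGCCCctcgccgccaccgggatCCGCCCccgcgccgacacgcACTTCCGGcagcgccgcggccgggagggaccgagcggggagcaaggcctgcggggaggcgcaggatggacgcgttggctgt
ARHGAP5-AS1: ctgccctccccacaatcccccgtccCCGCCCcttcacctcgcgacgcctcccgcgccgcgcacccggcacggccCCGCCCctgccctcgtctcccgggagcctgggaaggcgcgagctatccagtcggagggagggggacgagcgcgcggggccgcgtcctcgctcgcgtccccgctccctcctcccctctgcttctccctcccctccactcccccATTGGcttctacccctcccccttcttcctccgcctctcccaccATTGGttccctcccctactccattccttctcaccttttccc
KDM7A-DT: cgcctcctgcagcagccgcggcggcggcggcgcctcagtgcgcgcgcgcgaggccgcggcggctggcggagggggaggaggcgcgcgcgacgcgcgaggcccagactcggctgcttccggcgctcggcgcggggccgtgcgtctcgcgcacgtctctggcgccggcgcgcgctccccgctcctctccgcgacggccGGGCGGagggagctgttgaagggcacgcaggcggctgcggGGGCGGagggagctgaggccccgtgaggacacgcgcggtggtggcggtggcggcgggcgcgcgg

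RefSeq gave a window for 85 of the 106 genes, and 35116 windows in all. On both strands, 54 of the 85 (63.5%) held a GC box, against 45.0% of all windows, and 35 (41.2%) held a CCAAT box, against 34.6%. The ETS motif was in 5 of the 85 (5.88%), against 4.14%, and the NRF1 motif in 2 (2.35%), against 1.24%. The median GC content was 63.3% in the 85 windows, against 58.7% in all. The Smad box CAGACA was in 10 (11.8%), against 16.9%, the AP-1 motif TGANTCA in 8 (9.41%), against 7.71%, and the short HNF4 motif AAAGTCCA in 2 (2.35%), against 1.14%. No searched motif contains another, and a match is a description of letters, not of binding.

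Signals are MAS5 intensities on a linear scale, and differences are of log2 signal with the standard error of a limma fit over the 6 arrays with siRNA and time as terms. A gene rose or fell where the Benjamini-Hochberg adjusted p of limma, over 11921 genes above a floor of 12.9, was under 0.05. Without replicates a gene's own error is the disagreement of its differences across times or siRNAs, which so few arrays measure poorly. limma combined it with a prior error taken from the trend of error with signal intensity over all genes tested. The prior carried 12.6 degrees of freedom in this fit, against 2 from the gene's own arrays. Standard errors and p therefore leaned mainly on that trend, and less on the scatter seen for each gene. HepG2 identity is as labelled, and all 9 hepatocyte markers exceeded the floor on every array (491.8 to 11339). PTPRC, VWF and CDH5 were below it on every array, and the 8 other blood, endothelial and fibroblast markers reached at most 127.2. Of these 8, PECAM1 (47.0 to 127.2) and CD14 (13.9 to 100.3) exceeded the floor on all 6 arrays and PDGFRB on 5. The siControl 0 h array stood apart in the 3 control probe sets of 18S ribosomal RNA. The 5′ set was at 8600 against 69.8 to 736.5 on the others, the middle set at 1333 against 53.0 to 258.7 and the 3′ set at 461.9 against 87.6 to 151.9, and its part in the results was not tested beyond leaving it out.

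The 106 genes had a median mean signal of 96.5, and 51 exceeded 100. Signals of different probe sets depend on their probes, so their order is an order of signals and not of RNA levels. Over the 6 arrays the mean signal was 1215 for SNHG32, 789.8 for LINC00621, 696.3 for FGD5-AS1, 556.0 for SNHG19 and 547.2 for WAC-AS1. It was 423.4 for OIP5-AS1, 412.7 for CCDC144NL-AS1, 391.8 for KRT10-AS1, 357.8 for EPB41L4A-AS1 and 306.7 for LINC00261. These 10 were chosen for their mean signals, the measure that also chose the 106.

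Just above the limit of 50 lay LINC02482 (52.8), LINC02987 (52.77), PITX1-AS1 (51.13), SEPTIN7-DT (50.72) and SCAMP1-AS1 (50.13). Just below it lay PXN-AS1 (49.48), ZEB1-AS1 (48.72), GABPB1-IT1 (48.28), LINC02481 (47.98) and NRSN2-AS1 (47.73). Of the 106, 73 exceeded 50 on all 6 arrays and 33 fell short on at least 1, 9 of these on 3 or more arrays. No member was at or below the floor on any array, and all 106 entered the fit. The chosen probe set ended in _x_at or _s_at, an ending that can mark probes shared between transcripts, for 23 genes.

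**Figure D1:**
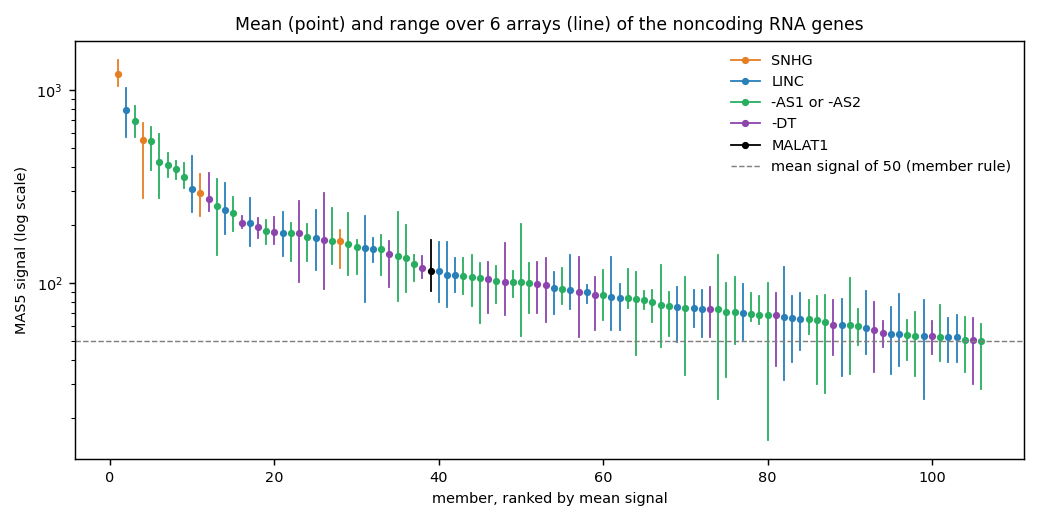
Mean MAS5 signal over the 6 arrays (point, log vertical axis) and its lowest to highest array (line) for each of the 106 noncoding RNA genes, ranked by mean signal along the horizontal axis and coloured by class. The mean signals run between just above 50 and 1215, and they are signals of different probe sets, not levels.

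Of the 106 genes, 10 (9.43%) differed between siHNF4A and siControl cells over the 3 times, 2 higher and 8 lower. Over all 11921 genes tested 8.06% were called, 3.90% higher and 4.16% lower. Among genes tested with a mean signal above 50 the share was 9.95%, near that of the members, with 4.98% higher and 4.97% lower. By direction, 1.89% of the members were higher and 7.55% lower. In bulk RNA, fewer cells with a transcript and less of it per cell cannot be told apart. The highest passing difference was that of OIP5-AS1, also known as cyrano, and the lowest that of NNT-AS1. LINC genes made up 5 of the 10, with 1 that rose and 4 that fell of 30. Antisense genes gave 1 that rose and 3 that fell of 50, divergent transcripts 1 that fell of 21, and the SNHG genes and MALAT1 none.

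OIP5-AS1 had signals of 465.3, 485.3 and 595.9 in siHNF4A cells at 0, 1.5 and 24 h, against 293.1, 278.5 and 422.1 in siControl cells. Every siHNF4A array was above every siControl array. The difference was 0.66 ± 0.12 (limma, adjusted p = 0.00425). Its 2 other probe sets gave differences of 0.27 and 0.95. LINC00621 had signals of 1001, 1032 and 690.3 in siHNF4A cells, against 710.8, 731.7 and 573.3 in siControl cells. It was higher at each time, while the arms overlapped, at 0.42 ± 0.11 (limma, adjusted p = 0.0249), on a probe set whose name ends in _x_at.

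NNT-AS1 runs against NNT, which encodes the mitochondrial nicotinamide nucleotide transhydrogenase. Its signal was 102.3, 90.3 and 100.3 in siHNF4A cells at 0, 1.5 and 24 h, against 176.6, 146.4 and 199.9 in siControl cells. The arms did not overlap, and the difference was -0.83 ± 0.17 (limma, adjusted p = 0.00664). SPEN-AS1 runs against SPEN, a transcriptional repressor, and had signals of 60.6, 73.8 and 33.4 in siHNF4A cells, against 102.7, 108.1 and 69.3 in siControl cells. It was lower at each time, with overlapping arms, at -0.79 ± 0.20 (adjusted p = 0.0264 in the same limma fit).

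LBX2-AS1, which runs against the homeobox gene LBX2, had signals of 133.1, 88.5 and 80.9 in siHNF4A cells, against 182.9, 233.7 and 113.0 in siControl cells. Its lowest siControl value lay below its highest siHNF4A value, and the difference was -0.78 ± 0.20 (limma, adjusted p = 0.0256). LINC00513 had 75.8, 77.8 and 98.4 in siHNF4A cells, against 137.0, 110.1 and 164.2 in siControl cells. Its arms did not overlap (-0.70 ± 0.18, limma adjusted p = 0.0249). Its start site is 154 bases from that of LINC-PINT, a noncoding RNA gene induced by p53, on the opposite strand, and LINC-PINT had a difference of -0.58 ± 0.24 (limma, adjusted p = 0.177).

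LINC00526 and LINC00667 lie side by side on chromosome 18 and point away from each other, with starts 71 bases apart. Their promoter windows share 170 bases, and the LINC00526 start is base 180 of the LINC00667 window shown above. LINC00526 had signals of 145.7, 141.6 and 79.8 in siHNF4A cells, against 210.1, 222.4 and 116.5 in siControl cells, a difference of -0.58 ± 0.16 (limma, adjusted p = 0.0382). LINC00667 had 153.1, 145.8 and 117.6 in siHNF4A cells, against 215.7, 239.0 and 158.4 in siControl cells, at -0.55 ± 0.16 (limma, adjusted p = 0.044). Both were lower in siHNF4A cells at each time, and the LINC00667 arms did not overlap. The 3 other LINC00667 probe sets above the floor gave -0.64, -0.79 and -0.34. LINC00526 and LINC00667 lost their calls under quantile normalization and under scaling to the median, and PAXIP1-DT under the second.

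PAXIP1-DT starts near PAXIP1, a gene of the DNA damage response. It had signals of 176.4, 162.2 and 101.7 in siHNF4A cells, against 267.0, 228.2 and 152.6 in siControl cells, and fell by 0.56 with a standard error of 0.15 (limma, adjusted p = 0.0334). LINC01003 had 193.3, 198.2 and 180.1 in siHNF4A cells, against 330.2, 255.1 and 280.2 in siControl cells. Its arms did not overlap (-0.59 ± 0.14, limma adjusted p = 0.0201), on a probe set ending in _s_at.

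Without the siControl 0 h array 5 of the 106 genes passed. Of these OIP5-AS1 (0.65), NNT-AS1 (-0.85) and LBX2-AS1 (-0.94) were among the 10, and HLA-F-AS1 (-1.08) and HOXA-AS2 (-1.09) were added. That fit has 1 residual degree of freedom and an infinite prior estimate, so its error is that of the intensity trend, and 7.89% of all genes passed in it. With the 24 h pair left out none of the 106 passed (1.97% of all genes), with the 0 h pair left out 5 did (7.91%) and with the 1.5 h pair left out 4 did (4.85%). None of the 106 passed either when dim genes were kept in the fit (0% of all genes) or when limma used no intensity trend (0.377%), with 14 and 23 at an unadjusted p under 0.05. HLA-F-AS1, opposite the class I gene HLA-F, had 80.6, 72.5 and 15.5 in siHNF4A cells, against 101.0, 61.6 and 82.0 in siControl cells. HOXA-AS2, of the HOXA cluster, had 57.0, 40.3 and 33.8 in siHNF4A cells, against 69.0, 58.0 and 106.0 in siControl cells. The mean of HOXA-AS2 was 43.7 in siHNF4A cells and 77.7 in siControl cells, so it met the rule through the arm where it was high. With all arrays the differences of HLA-F-AS1 and HOXA-AS2 were -0.83 ± 0.36 and -0.82 ± 0.26, with limma adjusted p of 0.194 and 0.0689.

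LINC00261, a noncoding RNA gene beside the endoderm factor FOXA2, had signals of 459.0, 399.0 and 246.3 in siHNF4A cells at 0, 1.5 and 24 h, against 235.1, 262.8 and 238.2 in siControl cells. It was higher in siHNF4A cells at 0 and 1.5 h and near the siControl value at 24 h. The difference over the times was 0.54 ± 0.16 and missed the threshold (limma, adjusted p = 0.0555), but passed after scaling to the median. ARHGAP5-AS1 at 0.55 and HECW2-AS1 at 0.46 were the other high differences that missed it (limma adjusted p = 0.0895 and 0.334).

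Of the 106 genes, 76 were below 0 for the siRNA, against 56.1% of all genes tested, and the median was -0.18, against -0.04. Arms did not overlap for 19 genes, 2 higher and 17 lower (17.9%), against 17.5% of all genes, of which 7.16% were higher and 10.4% lower. Of genes with a mean signal above 50 the arms did not overlap for 18.7%, 7.97% higher and 10.8% lower. At an unadjusted limma p under 0.05, 24 of the 106 genes (22.6%) passed, against 21.4% of all and 24.5% of genes above 50. The median difference of the members between single arrays, in order of time, was -0.15, -0.04 and -0.31. Over all genes it was -0.01, -0.05 and -0.03. Scaling to the median put the members' median over the times at -0.13 and that of all genes at 0.01, and quantile normalization put the members' at -0.13.

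**Figure D2:**
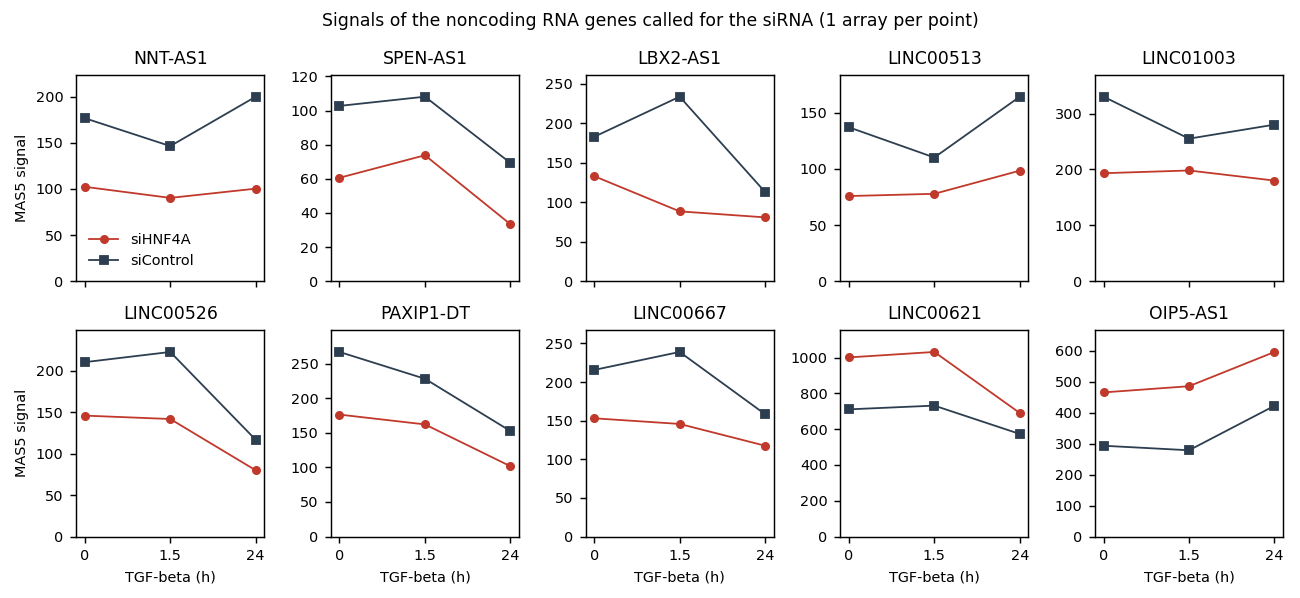
Signal (vertical axis, MAS5 intensity) against hours of TGF-beta for the noncoding RNA genes called for the siRNA, with siHNF4A and siControl arrays as separate lines, 1 array per point and the times evenly spaced. OIP5-AS1 and LINC00621 lie higher in siHNF4A cells at each time, and the 8 others lie lower.

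**Figure D3:**
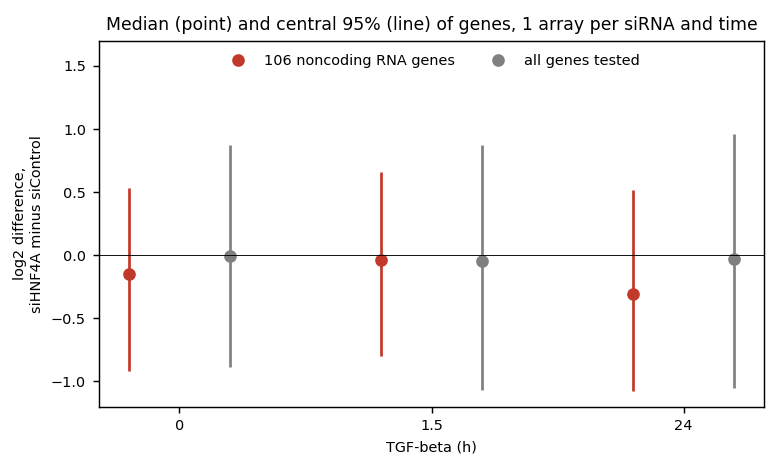
Median (point) and central 95% (line) of the log2 difference, siHNF4A minus siControl, at 0, 1.5 and 24 h for the 106 noncoding RNA genes and for all 11921 genes tested. The members' median lies lowest at 24 h, at -0.31, where that of all genes is -0.03.

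At 24 h against 0 h, over both siRNAs, 21 of the 106 genes (19.8%) passed, 10 higher and 11 lower, against 15.0% of all genes tested, 7.22% higher and 7.82% lower. Among genes tested with a mean signal above 50 the share was 18.3%, near that of the members. The members' median was -0.02, against -0.03 for all genes. The antisense genes gave 5 that rose and 5 that fell of 50, LINC genes 4 and 3 of 30, divergent transcripts 1 and 2 of 21, and SNHG genes 1 that fell of 4. Of the 10 that rose, HECW2-AS1, LINC00963, LINC01138 and LINC00326 had a mean at 0 h of 50 or less, and of the 11 that fell, C2orf49-DT, TTC28-AS1 and TMEM147-AS1 had such a mean at 24 h. These 7 met the rule through the arrays where they were high. LINC00973, which also rose, had means of 51.7 at 0 h and 39.8 at 1.5 h, against 108.3 at 24 h. It exceeded 50 on 3 arrays, so it too leaned on its 24 h arrays to meet the rule.

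HECW2-AS1 had signals of 53.9, 59.0 and 119.5 in siHNF4A cells at 0, 1.5 and 24 h and 41.5, 25.1 and 140.6 in siControl cells, and had the highest difference (1.45 ± 0.31, limma adjusted p = 0.00578). ARHGAP5-AS1 had 78.1, 84.5 and 202.9 in siHNF4A cells and 62.3, 53.4 and 128.5 in siControl cells. Both 24 h arrays were above the 4 others, and the difference was 1.21 ± 0.23 (limma, adjusted p = 0.00249). KDM7A-DT, divergent from a histone demethylase gene, had 129.4, 93.6 and 228.7 in siHNF4A cells and 128.4, 133.9 and 293.5 in siControl cells. Here too the 24 h arrays stood above all others (1.01 ± 0.20, limma adjusted p = 0.0038).

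LINC01138 had signals of 38.1, 37.1 and 88.0 in siHNF4A cells and 42.3, 37.9 and 83.4 in siControl cells, with a difference of 1.09 ± 0.26. LINC00973 had 56.0, 48.1 and 120.9 in siHNF4A cells and 47.4, 31.5 and 95.7 in siControl cells (1.06 ± 0.26). In both genes the 24 h arrays stood clear of the others (limma adjusted p = 0.0115 and 0.0113). LINC00326 had 25.2, 42.4 and 81.7 in siHNF4A cells and 57.2, 34.0 and 79.8 in siControl cells, with 1 low array at 0 h (1.09 ± 0.34, limma adjusted p = 0.041). LINC00963 (0.90), ATXN1-AS1 (0.81), DLGAP1-AS1 (0.74) and FAM131B-AS2 (0.66) rose as well, with limma adjusted p between 0.0366 and 0.0485.

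SNHG19 had the lowest p of the 21. Its signal was 659.7, 676.3 and 275.5 in siHNF4A cells at 0, 1.5 and 24 h and 660.3, 658.7 and 405.7 in siControl cells. Values at 0 and 1.5 h were close in both arms, and both 24 h arrays were lower (-0.98 ± 0.16, limma adjusted p = 0.000965), on its single probe set, which ends in _x_at. The other SNHG genes did not pass. SNHG32 had 1059, 1090 and 1417 in siHNF4A cells and 1205, 1076 and 1442 in siControl cells (0.34 ± 0.12, limma adjusted p = 0.0711). SNHG33 had 224.7, 284.4 and 283.5 in siHNF4A cells and 311.8, 297.1 and 367.2 in siControl cells. SNHG17 had 189.4, 173.9 and 151.4 in siHNF4A cells and 170.4, 187.4 and 120.1 in siControl cells.

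TMEM147-AS1, opposite a gene of an endoplasmic reticulum membrane protein, had signals of 75.5, 76.2 and 27.1 in siHNF4A cells and 73.8, 87.0 and 40.9 in siControl cells (-1.16 ± 0.27, limma adjusted p = 0.00802). C2orf49-DT had 89.0, 78.9 and 38.7 in siHNF4A cells and 76.8, 89.4 and 37.1 in siControl cells (-1.13 ± 0.25). TTC28-AS1 had 71.4, 79.6 and 30.0 in siHNF4A cells and 86.1, 74.6 and 43.6 in siControl cells (-1.12 ± 0.26). FOXP4-AS1 had 97.8, 95.8 and 42.6 in siHNF4A cells and 114.0, 88.3 and 59.0 in siControl cells (-1.07 ± 0.24). In all 4 both 24 h arrays were below the 4 earlier ones, and the limma adjusted p of the last 3 lay between 0.00713 and 0.0101.

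LINC00526 and PAXIP1-DT, lower for the siRNA, fell at 24 h as well, by 0.86 and 0.80 (limma adjusted p = 0.00782 and 0.00853), and LINC00621, higher for the siRNA, fell by 0.42 (limma adjusted p = 0.0405). These values come from the same 6 arrays. DHRS4-AS1 had 347.8, 218.1 and 140.5 in siHNF4A cells and 287.5, 284.1 and 224.9 in siControl cells, and fell by 0.83 (limma adjusted p = 0.0151). LINC00957 and GABPB1-AS1 fell by 0.87 and 0.71 (limma adjusted p = 0.0293 and 0.0406). GABPB1-AS1 lost its call under quantile normalization, and LINC00621 its 24 h call under scaling to the median. HLA-F-AS1 had the lowest difference of all at 24 h, -1.34 ± 0.44, which missed the threshold (limma adjusted p = 0.0551). The other GABPB1-AS1 probe sets above the floor were at 0.10 and -0.09, against -0.71 for the chosen one, so its fall rests on 1 probe set.

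MALAT1, an abundant nuclear RNA of splicing speckles, had signals of 101.9, 123.0 and 168.7 in siHNF4A cells and 91.4, 97.3 and 114.9 in siControl cells, on the chosen of its 12 probe sets. The differences were 0.53 ± 0.22 at 24 h and 0.35 ± 0.18 for the siRNA (limma adjusted p = 0.119 and 0.272). Neither passed.

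Without the siControl 0 h array 17 of the 106 genes passed for 24 h, where 1431 of 11921 genes did, and 12 of the 17 were among the 21. The error of that fit is again that of the intensity trend. KDM7A-DT (0.78), PAXIP1-DT (-0.77), TTC28-AS1 (-1.09), LINC00963 (0.88), ATXN1-AS1 (0.91), DLGAP1-AS1 (0.88), FAM131B-AS2 (0.62), GABPB1-AS1 (-0.79) and LINC00621 (-0.48) lost their calls. With 1.5 h as the reference for 24 h, 20 passed (13.4% of all genes) and 16 of them were among the 21. With dim genes kept in the fit none of the 106 passed (25 at an unadjusted p under 0.05, and 0.00506% of all genes adjusted). Without limma's intensity trend 8 did (3.83% of all genes). Between single arrays, 16 genes changed at least 2-fold in siHNF4A cells, 5 up and 11 down (15.1%, against 9.12% of all genes, 4.50% up and 4.61% down). Of genes with a mean signal above 50, 7.59% did, 3.47% up and 4.12% down. In siControl cells 6 did, 5 up and 1 down (5.66%, against 5.71%, 3.11% up and 2.60% down, and 4.35%, 2.37% and 1.98% of genes above 50). The 24 h and 0 h arrays did not overlap for 53 genes of 106, against 50.3% of all genes.

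**Figure D4:**
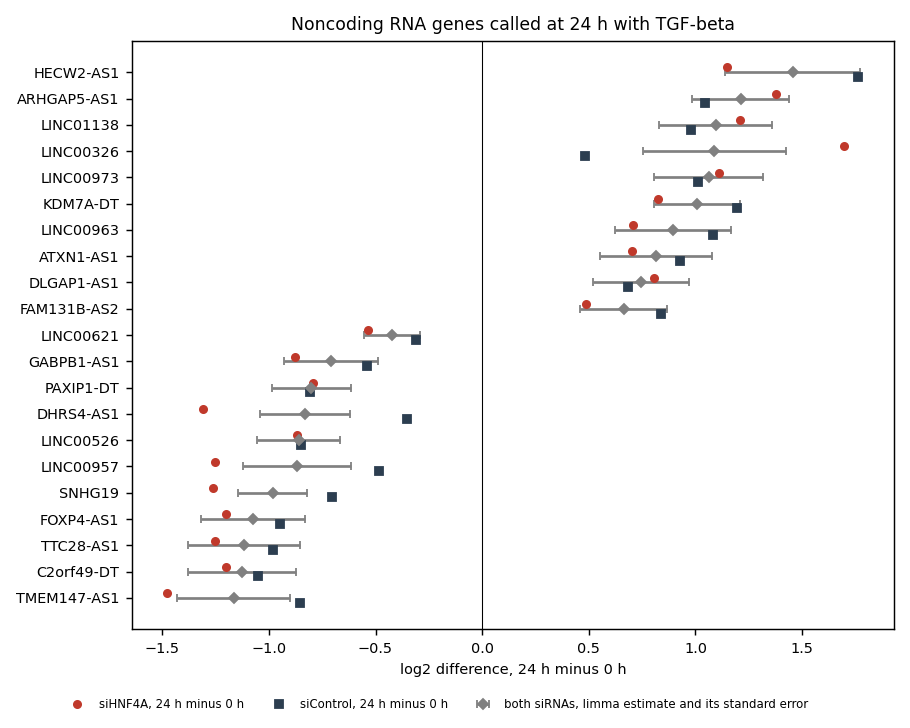
Log2 difference, 24 h minus 0 h, of the 21 noncoding RNA genes called over both siRNAs, with the siHNF4A and siControl values as points and the limma estimate with its standard error. The 10 that rose run between 0.66 and 1.45 and the 11 that fell between -0.42 and -1.16.

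At 1.5 h against 0 h none of the 106 genes passed in limma, where 0.101% of all genes did (12 genes), and 2 were under an unadjusted p of 0.05 (1.89%, against 3.05%). The 1.5 h and 0 h arrays did not overlap for 32 genes (30.2%), 23 of them lower (21.7%), against 22.5% of all genes and 12.5% lower. The members under the unadjusted p were RALY-AS1, with a difference of -0.84 ± 0.27, and MAP4K3-DT, at -0.74 ± 0.24. RALY-AS1 had 71.0, 45.3 and 58.8 in siHNF4A cells at 0, 1.5 and 24 h, and 67.3, 33.1 and 45.9 in siControl cells. MAP4K3-DT had 77.0, 57.6 and 106.6 in siHNF4A cells and 109.9, 52.7 and 137.4 in siControl cells. Both had their lowest value at 1.5 h in each arm. The other MAP4K3-DT probe set was nearly flat, with 38.7 and 38.2 in siHNF4A cells at 0 and 1.5 h, and 53.7 and 50.9 in siControl cells. The size of the MAP4K3-DT difference therefore rests on 1 probe set. After RALY-AS1 and MAP4K3-DT the lowest were LINC02210 (-0.52), LINC00957 (-0.46) and HLA-F-AS1 (-0.43). STX17-DT (0.45), DLGAP1-AS1 (0.44), LINC00339 (0.41), LINC03011 (0.40) and RARA-AS1 (0.38) were highest. RALY-AS1 and LINC02210 had 1.5 h means of 39.2 and 40.7, against 69.2 and 59.6 at 0 h, so both met the rule through the times where they were high.

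Whether the 24 h siRNA difference departed from its mean at 0 and 1.5 h was tested in a further limma fit. None of the 106 genes passed, nor did any of all genes (0%), and 6 were under an unadjusted p of 0.05 (5.66%, against 4.54%), all in the negative direction. Of all genes, 2.22% were higher and 2.32% lower at that unadjusted p. Of genes with a mean signal above 50, 3.61% were under it, 2.21% of them in the negative direction. The 6 members were HLA-F-AS1, HOXA-AS2, SCAMP1-AS1, LINC00261, LINC00674 and SNHG19. The mean of SCAMP1-AS1 was 44.4 in siHNF4A cells and 55.9 in siControl cells, so it met the rule through its siControl arrays. HLA-F-AS1 departed furthest, by -2.36 ± 0.46 (limma adjusted p = 0.453), with its 1 low array at 15.5, near the floor. LINC00261 departed by -0.74 ± 0.31 (limma adjusted p = 0.999). Its 24 h minus 0 h difference was -0.90 in siHNF4A cells and 0.02 in siControl cells. SNHG19 departed by -0.58 ± 0.25 (limma adjusted p = 0.999), with 24 h minus 0 h values of -1.26 in siHNF4A cells and -0.70 in siControl cells.

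Of the 71 antisense and divergent members, 61 had a partner gene on the array with a probe set of its own, and 57 partners were tested. Of the 57 partners, 4 rose and none fell for the siRNA, where 3.90% of all genes rose and 4.16% fell. At 24 h 6 rose and 4 fell, where 7.22% and 7.82% of all genes did. For 54 pairs both starts were in RefSeq, 53 lay on opposite strands, and in 33 the starts were within 1000 bases. Member and partner had the same sign at 24 h in 37 of 57 pairs, and in 21 of the 29 close pairs that were tested. For the siRNA they did so in 30 of 57 and in 14 of 29. Signs were taken after rounding to hundredths, so the 24 h counts are approximate. ILRUN-AS1 and ILRUN, which both rounded to 0, counted as the same sign, and RAB30-DT with RAB30 (0.00 and 0.25) did not. Pearson's r across all 57 pairs was 0.34 at 24 h and 0.02 for the siRNA, and across the 29 close pairs it was 0.53 and 0.01. KDM7A-DT (1.01, partner 1.05) and ARHGAP5-AS1 (1.21, partner 0.44) had the highest member differences of the close pairs at 24 h. How far the 0.53 rests on these genes was not tested, so it does not describe close pairs in general. All pairs share the same 6 arrays and genes are not independent replicates, so these are descriptions.

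Of the partners 3 were called together with their member at 24 h. KDM7A, whose start is 278 bases from that of KDM7A-DT, had signals of 177.9, 224.5 and 435.1 in siHNF4A cells and 215.3, 151.9 and 377.0 in siControl cells (1.05 ± 0.20, limma adjusted p = 0.00266). ARHGAP5, 605 bases from ARHGAP5-AS1, had 1125, 1151 and 1484 in siHNF4A cells and 1165, 1065 and 1616 in siControl cells (0.44 ± 0.12, limma adjusted p = 0.0225). ATXN1, the gene of ataxin-1, had 389.7, 360.2 and 680.0 in siHNF4A cells and 175.1, 151.7 and 382.4 in siControl cells (0.97 ± 0.17, limma adjusted p = 0.00123). All 3 rose in both arms, as their members did. ATXN1 was also higher for the siRNA (1.08, limma adjusted p = 0.000173), where ATXN1-AS1 was at 0.04.

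OIP5, the partner of OIP5-AS1 and the gene of a centromere protein, had differences of the opposite sign. It had signals of 535.8, 482.1 and 196.6 in siHNF4A cells at 0, 1.5 and 24 h, and 646.2, 565.0 and 339.4 in siControl cells. At 24 h it fell by 1.19 ± 0.17 (limma adjusted p = 0.000244), and its siRNA difference was -0.43 (limma adjusted p = 0.0654). OIP5-AS1 itself differed by 0.44 ± 0.15 at 24 h, short of the threshold (limma adjusted p = 0.0638). Its other bright probe set had 376.3, 446.7 and 318.1 in siHNF4A cells and 356.1, 341.2 and 253.1 in siControl cells, lower at 24 h than at 0 h in both arms, so the probe sets disagree on the 24 h direction. The start sites of the pair are 48601 bases apart, counted from the OIP5-AS1 start of the window shown above. NNT differed by -0.29 for the siRNA, SPEN by 0.16, PAXIP1 by -0.07 (limma adjusted p = 0.294, 0.561 and 0.838). Of the 4 called members with a tested partner, no partner was called for the siRNA. TMEM147, whose start is 403 bases from that of TMEM147-AS1, differed by -0.40 at 24 h (limma adjusted p = 0.0862), and RALY, opposite RALY-AS1 and the gene of an RNA binding protein, by -0.58 (limma adjusted p = 0.0215).

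SCAMP1, the gene of a secretory carrier membrane protein, starts 76 bases from SCAMP1-AS1. It had signals of 537.7, 618.0 and 787.9 in siHNF4A cells at 0, 1.5 and 24 h, and 422.7, 375.4 and 549.4 in siControl cells. It rose for the siRNA (0.53 ± 0.12, limma adjusted p = 0.0122) and at 24 h (0.46 ± 0.15, limma adjusted p = 0.0427). SCAMP1-AS1 had 56.6, 48.3 and 28.3 in siHNF4A cells and 58.0, 47.7 and 61.9 in siControl cells. Its differences had the opposite sign and did not pass, at -0.38 and -0.45 (limma adjusted p = 0.437 and 0.382). The other partners that rose for the siRNA were MORC2 (0.39) and DSP, the desmoplakin gene (0.29), with limma adjusted p of 0.0447 and 0.0473. At 24 h PEG3, an imprinted gene (0.48), and DSP (0.38) also rose, and MAPKAPK5, a kinase gene (-0.61), and BOLA3, of iron-sulfur cluster assembly (-0.42), fell, with limma adjusted p between 0.00513 and 0.0409. Other tested partners of the genes named did not pass at 24 h. FOXP4 was at -0.06, TTC28 at -0.16, GABPB1 at -0.44, C2orf49 at 0.32, HLA-F at 0.14, PITX1 at -0.50, SEPTIN7 at 0.33, WAC at 0.36, FGD5 at 0.22, KRT10 at 0.00, STX17 at -0.02 and RARA at 0.31, with limma adjusted p between 0.0777 and 0.999. For the siRNA these 12 lay between -0.35 and 0.17, and none passed.

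**Figure D5:**
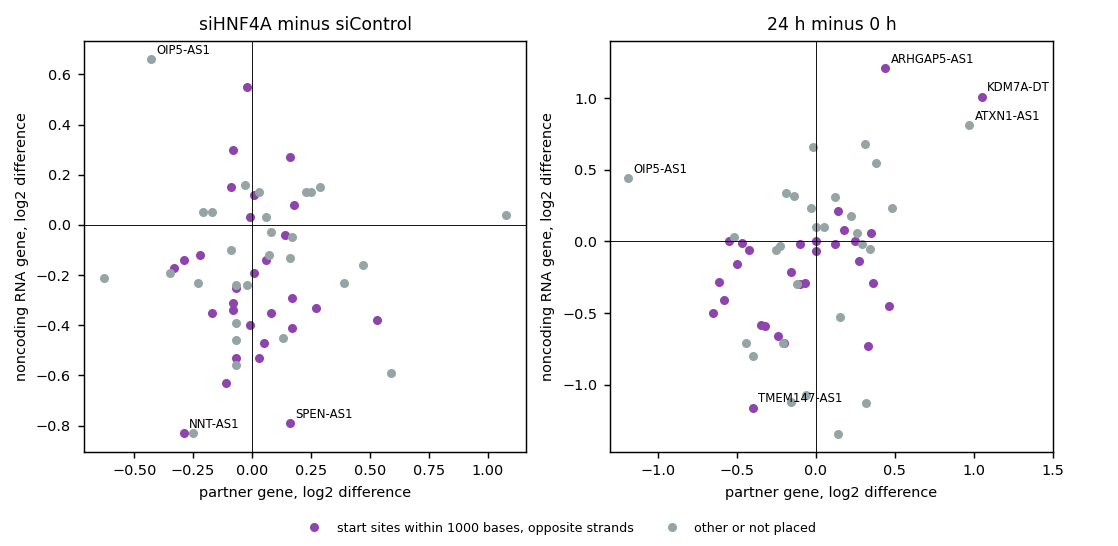
Log2 difference of each noncoding RNA gene (vertical axis) against that of its partner gene (horizontal axis), for the siRNA and for 24 h minus 0 h, with 57 tested pairs per panel. In the 24 h panel KDM7A-DT, ARHGAP5-AS1 and ATXN1-AS1 lie high on both axes, and OIP5-AS1 lies above 0 with OIP5 at -1.19.

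Among proteins that act with noncoding RNAs, the insulin-like growth factor 2 mRNA binding proteins IGF2BP1, IGF2BP2 and IGF2BP3 were measured, and 3 of 3 rose for the siRNA, where 3.90% of all genes did. IGF2BP1 had signals of 496.3, 417.4 and 465.8 in siHNF4A cells and 248.5, 336.4 and 244.9 in siControl cells (0.75 ± 0.15, limma adjusted p = 0.00585). Its arms did not overlap. IGF2BP2 rose by 0.47 and IGF2BP3 by 0.37 (limma adjusted p = 0.0441 and 0.0446), with overlapping arms. Of 6 measured paraspeckle proteins, which gather on NEAT1 RNA, RBM14 (-0.72 ± 0.21) and HNRNPH3 (-0.56 ± 0.13) fell at 24 h (limma adjusted p = 0.0339 and 0.00815), where 7.82% of all genes fell, and none passed for the siRNA. Of 20 listed protein-coding genes that host small nucleolar RNAs, 5 were tested and none passed in any comparison.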

How the data were processed

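Gene expression was measured in HepG2 cells on 6 arrays, 1 for each of 2 siRNAs and 3 times. The deposited intensities are linear MAS5 signals, which the authors obtained from MAS5 5.0 and GCOS, per the submitters' processing notes. Their trimmed mean (2% off each end) came to 100.01 on all arrays. The 54675 probe sets were named through a table of the platform annotation, which gave 1 symbol for 41097 and several for 1801, and those with several were left unnamed. Each gene was represented by its brightest probe set on average, and that rule favours probe sets that are high anywhere.

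Signals under 12.9, the median of all signals, were set to it before log2 was taken, and the 11921 genes with a mean above it were tested. limma 3.58.1 in R 4.3.3 (lmFit, eBayes with an intensity trend) used siRNA and time as terms, with 2 residual and 12.6 prior degrees of freedom, and Benjamini-Hochberg adjustment at 0.05. A second model also held the departure of the 24 h siRNA difference from the earlier ones (residual degrees of freedom 1, prior 8.4). On simulated data with 200 of 11921 genes changed 2-fold, the step recovered 85.5% for the siRNA, 73.5% for 24 h and 75.5% for 1.5 h. The simulated noise was normal, independent between genes and arrays, and had the spread of the fit itself, so the model's assumptions held by design. A 2-fold change exceeds every siRNA difference of a member (-0.83 to 0.66), and recovery at those sizes was not tested.

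The members, gene lists and tests were chosen with earlier results of these data known. Named were all called members, the 5 highest and 5 lowest differences for the siRNA, 24 h and 1.5 h, the 10 highest mean signals, the genes next to the limit, the tested partner genes of those named, and called genes of the lists and partners. Genes named as losing or gaining a call without an array, and those under an unadjusted p, were named after their values were seen. Alternatives were other normalizations, floors and probe set rules, no filter or trend, and left-out arrays. The HNF4A signal is not reported here. Python 3.11.15, with numpy 2.4.6, pandas 2.3.3 and matplotlib 3.10.9, made the tables and plots.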

Additional observations from a re-analysis of the deposited data

How the results depend on the processing

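The count of 10 genes called for the siRNA was 8 to 13 under quantile normalization, scaling to the median, the other floors, a pseudocount equal to the floor, without shared probe sets and with only genes above 50. It was 1 when a gene's probe sets were averaged, 0 without the filter on dim genes and 0 without the intensity trend (14 and 23 at an unadjusted p under 0.05, limma). Without the 0 h, 1.5 h or 24 h pair it was 5, 4 and 0 (14 unadjusted without the 24 h pair), and 5 without the siControl 0 h array. The count of 21 at 24 h was 17 to 26 under the others, 13 with the floor at the 75th percentile, where 65 members were tested, 11 with the mean of probe sets, 0 without the filter (25 unadjusted) and 8 without the trend. For 1.5 h the count was 0 under every alternative run (limma, 0 to 6 unadjusted). For the departure at 24 h it was 1 with the pseudocount and 1 with genes above 50, HLA-F-AS1 in both, and 0 under the others run (3 to 10 unadjusted).

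Over all genes, the siRNA calls split 465 higher and 496 lower as reported, and 558 higher and 385 lower after scaling to the median. They numbered 104 higher and 123 lower with the mean of probe sets, 16 and 29 without the trend, 0 and 0 without the filter (2117 unadjusted), 129 and 106 without the 24 h pair, and 296 and 282 without the 1.5 h pair. At 24 h the counts of 861 and 932 became 382 and 424 with the mean of probe sets, 249 and 208 without the trend, and 1 and 0 without the filter. For the departure at 24 h, 0 and 0 became 345 and 294 without the filter, 13 and 13 with genes above 50, 13 and 11 with the pseudocount and 1 and 3 under the 40th-percentile floor. The causes were not tested, except that leaving out arrays leaves fewer residual degrees of freedom and no filter leaves 0.629 prior ones. For named genes, 491 of 637 recomputed values kept direction and side of the threshold, 131 lost their call, 15 gained one and 0 reversed. The 637 values cover 47 results, and those not called had no call to lose, so calls were lost more often than 131 of 637. The siRNA calls of LINC00526 and LINC00667 were lost 9 times each and that of PAXIP1-DT 8 times, against 3 times for NNT-AS1. The labels give no replicate numbers, so arrays could be paired only by time. The time term already does this, as it sets the siRNA arrays of 1 time against each other. The departure at 24 h was not run without a pair or array, which leaves no residual degrees of freedom.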
